A study of Homo sapiens with 6 samples.

Results

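The 85 genes described here are the numbered zinc finger genes of human chromosome 19 that were expressed in PC9 cells. They are the rows of the deposited gene table with a name of ZNF and a number, a chromosome 19 position and at least 1 FPKM (sequenced fragments per kilobase, relative to all fragments mapped in that library) in at least 3 of the 6 libraries. A neighbouring family at 19q13, ZNF45 with ZNF222 to ZNF227, ZNF230, ZNF233 and ZNF234, was left out. The table holds 58825 gene rows, of which 12787 passed the same filter and were tested. It lists 475 numbered ZNF genes, 238 of them on chromosome 19. Apart from the left-out family, 144 of the 238 fell below the filter. The members were thus chosen by their expression level, in FPKM over all 6 libraries, which is given only as a description.

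The libraries were made from PC9, a human lung adenocarcinoma cell line with an activating EGFR mutation. In 3 libraries (G) the cells overexpressed FOXM1 with the G allele of the variant rs3742076, and in 3 libraries (A) they overexpressed FOXM1 with the A allele. FOXM1 is a forkhead transcription factor of the cell division programme. Every library came from cells treated for 24 h with 100 nM gefitinib, an EGFR inhibitor, and no library without overexpression or without the drug was analysed here. The labels do not name the promoter of the construct, say whether each line was a clone or a pool, or say whether the replicates were separate cultures, so the p-values rest on a spread between libraries that may be no more than technical. The comparison of G with A asks whether the allele carried by the overexpressed FOXM1 goes with a different transcriptome under gefitinib.

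C2H2 zinc finger proteins read DNA through tandem fingers, in each of which a pair of cysteines and a pair of histidines hold a zinc ion and a short linker joins one finger to the next. Chromosome 19 carries the largest human clusters of such genes, which arose by repeated duplication. Many of the encoded proteins carry a KRAB box at the amino end, which binds TRIM28, and TRIM28 in turn recruits SETDB1, HP1 proteins and the NuRD complex to form repressive chromatin, above all over transposable elements. Other members lack the box, and little is known of their targets.

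Coding sequences show both features of the family. ZNF260 lies at chr19:36510687-36528271 (GRCh38, minus strand) and encodes almost nothing but fingers. A pair of its neighbouring fingers is printed as coding bases, counted from the start codon in GENCODE release 29, with the linker codons in capitals. The first covers coding bases 580 to 663 and the second coding bases 664 to 747. First and second name the order within this pair, which lies inside the row of 13 fingers and not at its start.
ZNF260 first finger: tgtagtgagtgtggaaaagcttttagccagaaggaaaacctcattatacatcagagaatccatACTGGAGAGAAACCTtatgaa
ZNF260 second finger: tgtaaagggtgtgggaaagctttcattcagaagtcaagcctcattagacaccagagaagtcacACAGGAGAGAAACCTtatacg
The second pair of sequences shows why some members are hard to tell apart. ZNF587 (chr19:57849859-57865117, plus strand) and ZNF417 (chr19:57900296-57916610, minus strand) are recent duplicates that repress endogenous retroviruses. Their coding sequences have 1725 bases each and differ at 16, so they are 99.1% identical, with a longest identical run of 538 bases. The stretch with most differences is shown, coding bases 1335 to 1484, with the 5 differing bases in capitals.
ZNF587: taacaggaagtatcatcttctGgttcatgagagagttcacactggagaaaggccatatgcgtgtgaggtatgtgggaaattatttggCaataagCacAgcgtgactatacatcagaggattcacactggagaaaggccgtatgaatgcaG
ZNF417: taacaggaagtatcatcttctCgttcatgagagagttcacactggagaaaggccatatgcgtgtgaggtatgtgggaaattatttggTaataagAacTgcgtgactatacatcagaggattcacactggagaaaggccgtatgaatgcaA
Reads were 150 bases long, and 37.2% of the 150-base windows of this coding sequence held no difference between both genes. Over whole transcripts, 8.72% of the windows of ZNF587 also occur in ZNF417 and 17.0% of those of ZNF417 in ZNF587, so their separate values are uncertain. Such sharing with a gene elsewhere was rare among the members. Only 4 of 85 shared 5% or more of their windows with a gene elsewhere, the others being ZNF552 with ZNF814 (7.76%) and ZNF324 with ZNF324B (7.51%), while 77 shared none with such a gene. With overlapping genes counted as well, 64 shared no window. The share with overlapping genes was highest in ZNF564 (80.6%, mostly with AC010422.6), followed by ZNF8 (17.8%). It was 15.1% in ZNF358 and 10.4% in ZNF700. The spans of 12 members overlap a tested gene on the same strand and those of 9 a tested gene on the other strand, and since the strand setting of the counting is not given, reads of such partners cannot be told apart with certainty.

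Members were weakly expressed. Their mean level over the 6 libraries ran from 1.10 to 89.0 FPKM with a median of 2.95 FPKM, against 5.29 FPKM for all tested genes. Of the 85, 73 reached 1 FPKM in every library and 12 in 3 to 5 libraries. No member passed the filter through the G libraries alone, and ZNF628 passed through the A libraries alone. At the edge of the filter, the third highest library had 1.00 FPKM for ZNF628, 1.06 FPKM for ZNF112 and 1.13 FPKM for ZNF14. Just outside it were ZNF77 with 0.997 FPKM, ZNF554 with 0.982 FPKM and ZNF529 with 0.959 FPKM. Of the 144 genes below the filter, 48 had no estimate in any library, 34 averaged under 0.1 FPKM and 62 averaged 0.1 FPKM or more.

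Between 12451 and 12858 genes reached 1 FPKM in a library. FOXM1 itself had 14.6, 14.3 and 13.96 FPKM in the G libraries, against 25.5, 10.5 and 10.1 FPKM in the A libraries. The first A library stood apart in FOXM1, and the gene value cannot check which allele was expressed. All 7 epithelial markers were expressed, with a summed level of 2697 to 2951 FPKM in G and 2862 to 3402 FPKM in A. Of markers of other cells, none of 5 leukocyte and none of 4 endothelial markers passed the filter. The highest were the leukocyte marker CD14, at 0.680 to 0.946 FPKM in G and 0.885 to 1.17 FPKM in A, and the endothelial marker CDH5, at 0.327 to 0.410 FPKM in G and 0.167 to 0.386 FPKM in A. PTPRC and CD3E, which define leukocytes and T cells, reached at most 0.0378 and 0.0163 FPKM. Of 5 fibroblast markers only COL1A1 did, with DCN and LUM listed at the placeholder in every library. None of 5 lung lineage markers passed either, including NKX2-1 and NAPSA, so the labelled tissue is not visible in those genes.

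None of the 85 members passed the test for a difference between G and A after adjustment over all 12787 tested genes. The test was limma with an intensity trend on log2(FPKM + 1), and a gene was called at a p under 0.05 after Benjamini-Hochberg adjustment. It called 0 of 85 members, and 0.109% of all tested genes (14 genes). An unadjusted p under 0.05 was found for 10 members or 11.8%, a smaller share than the 17.3% of all tested genes. At that p, 7 of the 85 members were higher in G, beside 10.5% of all tested genes, and 3 of the 85 were lower, beside 6.82%. The 3 G and the 3 A libraries did not overlap for 18 members or 21.2%, near the 24.9% of all tested genes. G lay above A in 14 of the 85 (16.5%, beside 15.4% of all tested genes) and below A in 4 (4.71%, beside 9.57%). In the authors' deposited table, 0 of 85 members had a q-value under 0.05, beside 54 of all 58825 gene rows. A p-value under 0.05 was given for 7 members, beside 844 of all rows. Those rows include genes below the filter that chose the members, so the counts are not like shares.

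Most members had a slightly higher value in G as deposited, by less than the spread between libraries, and the size of this majority depended on the scaling. A positive log2 change was found for 56 of 85 members or 65.9%, beside 55.1% of all tested genes. Their median log2 change was 0.058, beside 0.022 for all tested genes, and the middle of their range ran from -0.060 to 0.16. Each library's median member level was 3.22, 3.04 and 2.81 FPKM in G, against 2.76, 2.48 and 2.99 FPKM in A, so the groups overlapped. In bulk RNA of this kind, fewer cells of a type and less RNA per cell cannot be told apart. Libraries decided the size of this small shift: the median was 0.015 without the second A library and 0.029 without the first G library. With library sums set equal, 65 of 85 members were positive and the median was 0.14, while the median of all tested genes was then 0.11. Quantile normalization and cyclic loess each left 48 positive, with medians of 0.013 and 0.012, and removing trends over length and GC content left 43, with a median of 0.001. The share of all tested genes that were positive moved too. It was 73.9% with equal sums, 50.3% with quantile normalization, 49.6% with cyclic loess and 48.0% with those trends removed.

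**Figure D1:**
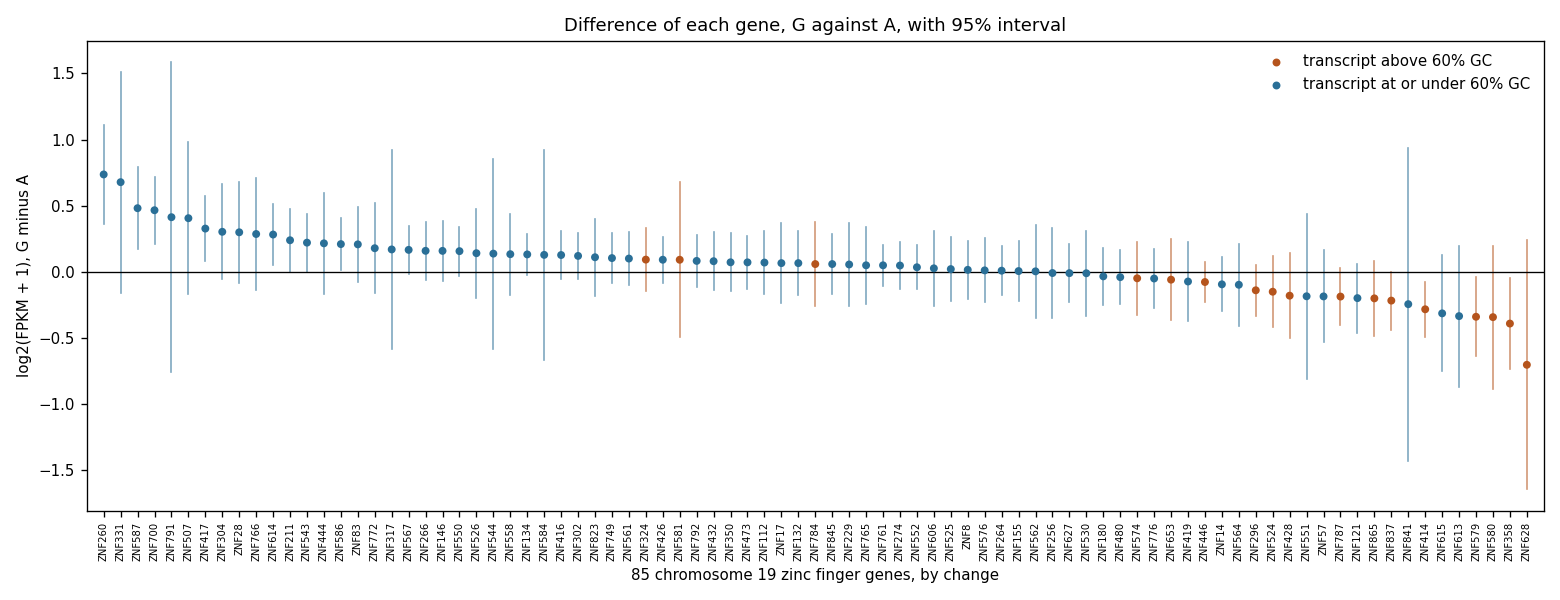
Each point is the log2(FPKM + 1) difference, G minus A, of 1 of the 85 genes, ordered from highest to lowest, with its 95% interval from limma as a line and colour for the GC content of the transcript. Of the genes with a negative difference, 14 have transcripts above 60% GC, and the widest intervals belong to genes whose libraries vary within a group, such as ZNF791, ZNF841 and ZNF628.

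The KRAB genes, 58 of the 85 members, also made up most of the members with higher values in G. A pattern search in the translated coding sequences found a KRAB box in these 58. Their log2 change was positive in 45 (77.6%, beside 55.1% of all tested genes), with a median of 0.075. Among the 58, the G libraries lay wholly above the A libraries in 12 (20.7%, beside 15.4% of all tested genes) and wholly below them in 0 (beside 9.57%). Without regard to direction this is 20.7%, beside 24.9% of all tested genes. Of the 27 members without the pattern, 11 were positive and the median was -0.060. Among members with transcripts at or under 60% GC, 77.2% of those with the pattern and 81.8% of those without it were positive. These values moved with the scaling. With quantile normalization or cyclic loess 38 of the 58 were positive, with medians of 0.032 and 0.033, and with the trends over length and GC content removed 32 were, with a median of 0.026. The median of the 27 turned to 0.019 with library sums set equal. The pattern is not a domain annotation and misses boxes that depart from it. KRAB genes had a median of 12 fingers and the others a median of 8, with a range of 1 to 26 over all members, the most being in ZNF845. The number of fingers went little with the log2 change (Spearman's rho 0.13 over 85 genes, as a description).

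ZNF260, a gene of fingers without a KRAB box whose rat counterpart works with GATA4 in heart muscle, had the largest log2 change in size at a pseudocount of 1. At a pseudocount of 0.1 that of ZNF628, described further on, was larger (-1.11, against 1.01 for ZNF260). ZNF260 was measured at 3.98, 3.25 and 3.34 FPKM in the G libraries, against 1.904, 2.15 and 1.18 FPKM in the A libraries. Every G library was above every A library, with means of 3.52 ± 0.40 FPKM in G and 1.74 ± 0.51 FPKM in A (SD, n = 3 each). The log2 change was 0.74 with an SE of 0.15, and the limma adjusted p of 0.165 did not pass. Across the alternative settings its log2 change stayed between 0.58 and 1.05 and its adjusted p between 0.086 and 0.38, the lower of these being the lowest of any member, shared with ZNF700. The authors' deposited table gives it a ratio of 2.02 with a p-value of 0.000295 and a q-value of 0.0662.

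ZNF700, a KRAB gene with 18 fingers at chr19:11925068-11950773, showed the next smallest p. Its libraries had 3.69, 3.43 and 4.03 FPKM in G, against 2.73, 2.01 and 2.54 FPKM in A, without overlap. The limma adjusted p was 0.176, for a log2 change of 0.47 with an SE of 0.10.

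The duplicates ZNF587 and ZNF417, printed above, were both higher in G. ZNF587 had 6.63, 6.21 and 5.58 FPKM in G, against 3.38, 4.05 and 5.03 FPKM in A, and ZNF417 had 2.67, 2.77 and 2.66 FPKM in G, against 2.39, 1.76 and 1.76 FPKM in A. Neither gene's groups overlapped. Their log2 changes were 0.48 (SE 0.13) and 0.33 (SE 0.10), with limma adjusted p-values of 0.192 and 0.210. Reads of the shared stretches can be assigned to either gene, so these are not independent observations.

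6 other KRAB genes completed the members with the smallest p among those higher in G. ZNF614 had 4.30, 4.24 and 3.77 FPKM in G, against 3.50, 2.73 and 3.40 FPKM in A. ZNF586 had 4.09, 3.48 and 4.14 FPKM in G, against 3.38, 3.26 and 3.06 FPKM in A. ZNF211 had 5.14, 4.90 and 4.38 FPKM in G, against 3.37, 4.19 and 4.23 FPKM in A. In these genes, as in ZNF543 and ZNF567, each G library exceeded each A library by a small margin. Their log2 changes were 0.28, 0.21, 0.24, 0.22 and 0.17 in that order, with limma adjusted p-values between 0.240 and 0.324. ZNF304, a KRAB repressor that silences tumour suppressor genes in colorectal cancer cells, had 4.57, 5.00 and 4.75 FPKM in G, against 4.63, 2.76 and 3.85 FPKM in A. Its groups overlapped, and its log2 change of 0.30 had a limma adjusted p of 0.354. ZNF586 overlaps ZNF587B on its own strand and ZNF552 on the other, and reads of these genes may be shared.

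**Figure D2:**
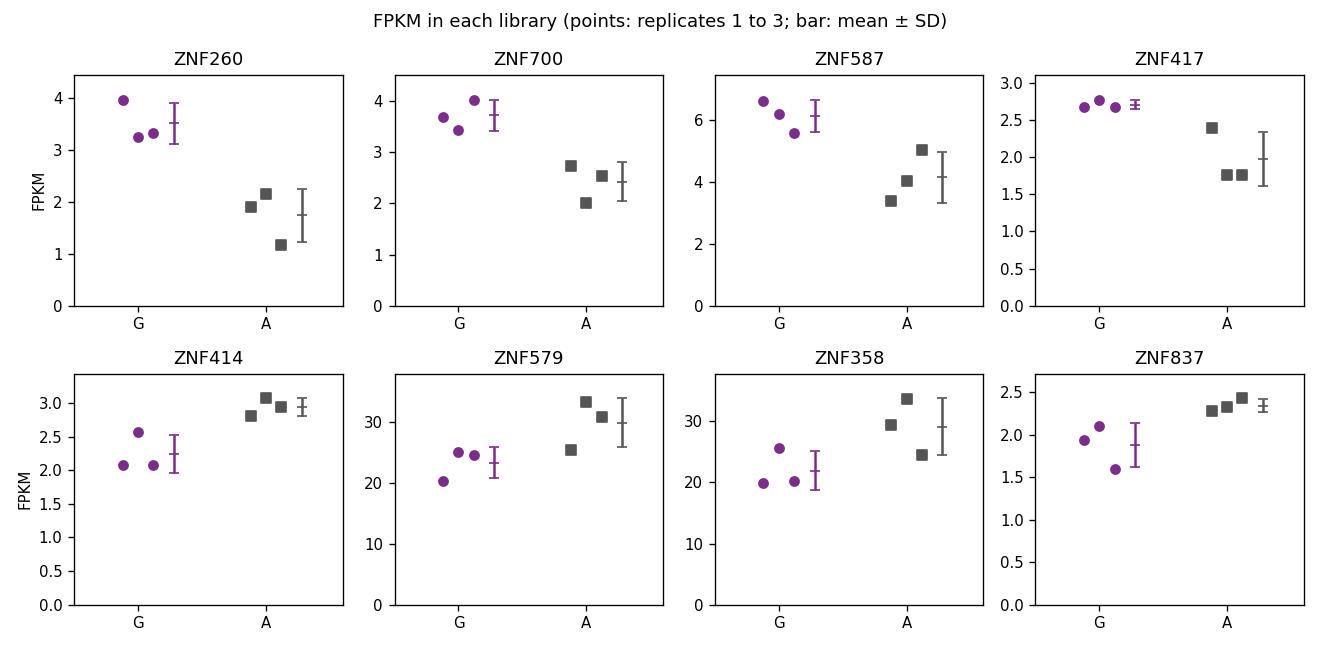
Points are the FPKM of each library, G (circles) left of A (squares), for the 4 genes with the smallest p in each direction, with bars for the mean ± SD of 3 libraries. In 7 of the 8 panels no G library overlaps an A library, the exception being ZNF358.

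The members lower in G with the smallest p were mostly genes with GC-rich transcripts and no KRAB pattern, with ZNF121 (40.4% GC) and the KRAB gene ZNF615 (38.9% GC) as exceptions. ZNF414, with 1 finger found by the pattern (chr19:8509678-8514167, minus strand), had 2.08, 2.57 and 2.08 FPKM in G, against 2.81, 3.08 and 2.94 FPKM in A. ZNF579 had 20.3, 25.1 and 24.6 FPKM in G, against 25.5, 33.3 and 30.9 FPKM in A. ZNF837 had 1.94, 2.10 and 1.59 FPKM in G, against 2.28, 2.32 and 2.43 FPKM in A. In all 3 genes each G library was below each A library. Their log2 changes were -0.28 (SE 0.087), -0.34 (SE 0.12) and -0.22 (SE 0.091), with limma adjusted p-values of 0.208, 0.248 and 0.290.

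ZNF358 was also lower, at 19.98, 25.6 and 20.2 FPKM in G, against 29.4, 33.7 and 24.4 FPKM in A. One G library exceeded the lowest A library, and the log2 change of -0.39 had a limma adjusted p of 0.249. An unnamed gene on the same strand, AC008878, overlaps ZNF358 and had 3.28, 3.66 and 2.17 FPKM in G, against 0.0610, 0.0001 (no estimate) and 2.33 FPKM in A. AC008878 was lower in the A libraries with most ZNF358, while within G both were highest in the second library. The part of this gene in the difference was not tested. ZNF787 had 16.5, 19.6 and 18.0 FPKM in G, against 18.6, 21.5 and 21.9 FPKM in A, with overlap and a log2 change of -0.19.

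ZNF628 had the most negative log2 change, -0.70, and owed it to 1 library. Its values were 0.826, 0.774 and 0.658 FPKM in G, against 1.09, 4.54 and 1.00 FPKM in A. Without the second A library the log2 change was -0.23. This gene entered the list only through its A libraries, so the rule favoured this direction. ZNF121, ZNF296, ZNF615 and ZNF865 had log2 changes of -0.20, -0.14, -0.32 and -0.20 with overlapping groups and limma adjusted p-values between 0.391 and 0.417. The mouse counterpart of ZNF296 takes part in reprogramming to pluripotency.

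Members with GC-rich transcripts were mostly lower in G and the others mostly higher. Of the 17 members with a main transcript above 60% GC, 14 were lower in G, with a median of -0.18, and of the 68 at or under 60% GC, 53 were higher, with a median of 0.081. The G libraries lay wholly below A in 4 GC-rich members (23.5%, beside 15.1% of all tested genes above 60% GC) and wholly above in 0 (beside 4.94%). At or under 60% GC they lay wholly above A in 14 members (20.6%, beside 17.4% of tested genes in that class) and wholly below in 0 (beside 8.51%). Leaving out ZNF628, whose entry through the A libraries favoured a lower value, 13 of 16 GC-rich members were lower, 3 of them wholly below A, with a median of -0.17. The same tilt ran through all tested genes: 63.7% of those above 60% GC were lower, with a median of -0.060, and 58.8% of those at or under 60% GC were higher, with a median of 0.038. Above 65% GC, 10 of 10 members were lower, or 9 of 9 without ZNF628, beside 382 of 527 tested genes. The boundary at 60% was chosen after the values were seen, and no test of the split was made.

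GC content and the KRAB pattern could be set apart only in part. Without the pattern but at or under 60% GC, 9 of 11 members were higher, with a median of 0.14. Without the pattern and above 60% GC, 14 of 16 were lower, ZNF628 among them, with a median of -0.18. ZNF324 was the one member with the pattern above 60% GC (61.3%), and its log2 change was 0.09. Across the 85 genes Spearman's rho of the log2 change with GC content was -0.34, against -0.28 over all tested genes, and with transcript length it was 0.34, against 0.36. Genes share the libraries, so these are descriptions. With the trends over length and GC content removed from each library, 13 of the 17 GC-rich members were still lower, with a median of -0.058, and 39 of the 68 others were higher, with a median of 0.030.

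**Figure D3:**
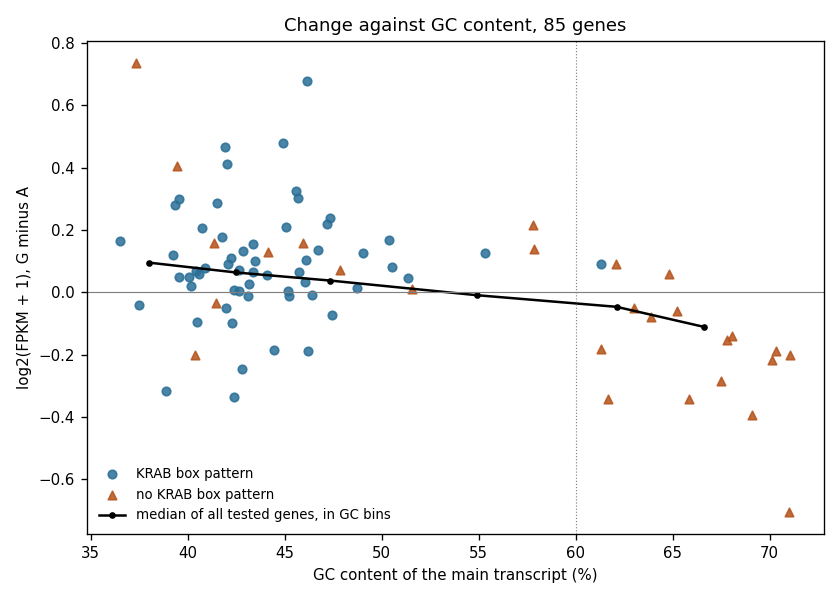
The log2(FPKM + 1) difference, G minus A, of each of the 85 genes is plotted against the GC content of its main transcript in percent, with circles for genes with a KRAB pattern and triangles for genes without one. The black line joins the medians of all tested genes in GC bins, which fall to -0.11 above 65% GC, and all 10 members beyond 65% lie below 0.

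The most abundant members were mostly GC-rich genes without a KRAB pattern, and none of them passed the test. ZNF581 was by far the highest, at 88.0, 95.8 and 86.4 FPKM in G, against 55.5, 105.5 and 102.6 FPKM in A. Its first A library was the low one, the groups overlapped, and its log2 change of 0.09 turned to -0.21 without that library. ZNF580, which overlaps ZNF581 on the same strand, had 9.65, 9.81 and 13.9 FPKM in G, against 14.04, 19 and 10.7 FPKM in A, with overlap. ZNF524 had 22.6, 25.8 and 25.0 FPKM in G, against 23.9, 31.9 and 26.5 FPKM in A, again with overlap and a log2 change of -0.15. ZNF865 had 11.3, 15.1 and 12.1 FPKM in G, against 13.5, 15.6 and 15.3 FPKM in A. ZNF761, the most abundant KRAB member, was the steadiest of them, with 14.5, 12.9 and 14.3 FPKM in G, against 13.9, 13.2 and 13.1 FPKM in A. Of the 10 members at 10 FPKM or more, 7 were lower in G, with a median log2 change of -0.18.

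Some members with a known role showed little difference. ZNF274, a KRAB protein that brings SETDB1 to the coding ends of other zinc finger genes, had 5.90, 5.63 and 5.31 FPKM in G, against 5.84, 5.38 and 5.01 FPKM in A. The log2 change of ZNF274 was 0.05, with a 95% interval of -0.13 to 0.23. ZNF473, which takes part in histone pre-mRNA processing, had a log2 change of 0.07, with a 95% interval of -0.13 to 0.27. ZNF146, a gene of fingers only, had 15.4, 12.2 and 13.1 FPKM in G, against 12.5, 12.1 and 11.4 FPKM in A, and a log2 change of 0.16 with a limma adjusted p of 0.424. These 3 genes were picked for their roles after their values were seen.

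The members lie in 12 of 16 clusters, formed by splitting the chromosome 19 ZNF genes wherever neighbours start more than 1 Mb apart. The long arm end, 55.5 to 58.5 Mb, holds 57 ZNF genes, 37 of them members, with 24 higher and 13 lower in G. The cluster at 51.6 to 53.6 Mb holds 39 ZNF genes and 15 members, with 11 higher and 4 lower. Between 19.7 and 24.1 Mb only 1 of 36 ZNF genes, ZNF14, passed the filter. Between 36.2 and 37.8 Mb, where ZNF260 lies, 3 of 24 passed and all 3 were higher. Between 7.1 and 9.8 Mb, 9 of 15 passed, and the 3 lower ones were ZNF358, ZNF414 and ZNF121.

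**Figure D4:**
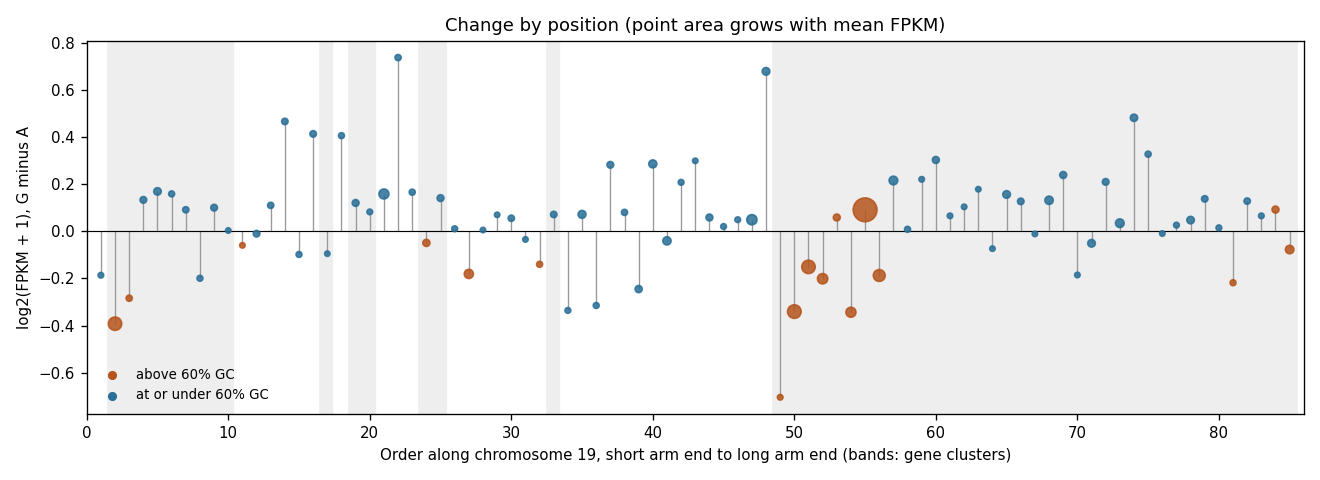
Each stem is the log2(FPKM + 1) difference, G minus A, of 1 of the 85 genes in their order along chromosome 19, with alternating bands for the clusters, point area for mean FPKM and colour for GC content. A run of GC-rich genes, most of them negative, sits at the start of the last cluster together with ZNF581, the largest point.

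Promoters of the members held more CpG than the promoters of all genes, expressed or not. RefSeq (GRCh38.p14) gave a start for 77 of 85 members, and in the 250 bases before it the median number of CpG dinucleotides was 18, against 11 over all 35116 promoters of the table. The promoters of the first gene of each direction, ZNF260 and ZNF414, are printed with CpG in capitals. Both start where the deposited gene does. Starts of some other members also match, and those of the rest lie at most 46900 bases away, in ZNF432. The promoters of the table were not filtered by expression, so neither the CpG numbers nor the motif shares below compare like genes.
ZNF260 chr19:36528272-36528521 minus strand: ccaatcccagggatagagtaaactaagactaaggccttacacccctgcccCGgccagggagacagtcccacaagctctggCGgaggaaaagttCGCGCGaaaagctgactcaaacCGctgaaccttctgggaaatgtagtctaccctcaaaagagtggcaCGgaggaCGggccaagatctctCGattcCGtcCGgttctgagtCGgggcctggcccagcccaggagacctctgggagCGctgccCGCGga
ZNF414 chr19:8514168-8514417 minus strand: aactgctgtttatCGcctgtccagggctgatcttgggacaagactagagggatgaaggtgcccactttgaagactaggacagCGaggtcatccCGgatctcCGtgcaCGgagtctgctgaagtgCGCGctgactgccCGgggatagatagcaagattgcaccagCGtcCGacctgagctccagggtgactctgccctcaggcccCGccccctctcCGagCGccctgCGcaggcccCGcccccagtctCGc
They hold 15 and 16 CpG. The forkhead motif GTAAACA, searched on both strands, was found in 0 of the 77 windows and in 2.98% of all promoters. The cell cycle motif TTTGAA was found in 11 or 14.3%, ZNF414 among them, against 13.3% of all, and CCAAT in 35 or 45.5%, ZNF260 among them, against 32.0%. None of the motifs contains another, and a window without a motif says only that these letters are not in it.

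At the level of transcripts the members also gave no call. Of 137 member transcripts from 80 genes, 0 passed limma's adjusted p under 0.05, beside 0.147% of all 29990 transcripts tested, and 6 had an unadjusted p under 0.05, all higher in G (4.38%, beside 7.81% of all). The first was ENST00000523638 of ZNF260, with 3.76, 3.42 and 3.50 FPKM in G, against 0.731, 0.764 and 0.860 FPKM in A. The groups lay far apart, with a log2 change of 1.35 and an SE of 0.14, yet the adjusted p was 0.0691. It passed only when limma ran without the intensity trend. Among the 6, this transcript, ENST00000590392 of ZNF567 and ENST00000597528 of ZNF274 were under 1 FPKM in every A library. They entered the test only through their G libraries, so the filter favoured a higher value in G. ENST00000592881 of ZNF580 had 7.07, 6.52 and 7.25 FPKM in G, against 4.49, 3.63 and 4.10 FPKM in A, a log2 change of 0.65 with a limma adjusted p of 0.355. The gene value of ZNF580 pointed the other way, with a log2 change of -0.34. Isoforms of these genes share most of their sequence, so how reads were split among them also moves such values.

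Genes of the KRAB corepressor and heterochromatin machinery were mostly slightly higher in G, and none passed the test. Of 36 names, 34 were found and 33 tested, and in 23 of them (69.7%, beside 55.1% of all tested genes) the log2 change was positive, with a median of 0.054. limma called 0 of the 33, and 8 had an unadjusted p under 0.05 (24.2%, beside 17.3% of all tested genes). All 8 were higher in G, so the 24.2% stand beside the 10.5% of all tested genes that had such a p and were higher in G. CBX5, which encodes an HP1 protein, had 9.75, 9.47 and 9.73 FPKM in G, against 7.46, 7.44 and 8.03 FPKM in A, a log2 change of 0.30 with a limma adjusted p of 0.159. TASOR, the scaffold of the HUSH silencing complex, had 4.54, 4.39 and 4.34 FPKM in G, against 3.48, 3.52 and 3.34 FPKM in A, a log2 change of 0.29 with a limma adjusted p of 0.165. In both genes, and in the 6 that follow, the groups did not overlap. Without regard to direction, the groups did not overlap in 27.3% of the 33 genes, ATRX being the further one, near the 24.9% of all tested genes. By direction, G lay above A in all of this 27.3%, beside 15.4% of all tested genes. G lay below A in none of the 33, beside 9.57%.

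SETDB1, the histone H3 methyltransferase that TRIM28 recruits, had 7.66, 7.25 and 7.20 FPKM in G, against 6.81, 6.37 and 5.57 FPKM in A, a log2 change of 0.21 with a limma adjusted p of 0.264. The log2 changes of the others were 0.26 for CHD3, a NuRD helicase, 0.32 for the SUMO protease SENP7, 0.22 for RCOR1, a partner of the demethylase KDM1A, 0.40 for the methyltransferase SUV39H1 and 0.31 for MORC3. TRIM28 itself had 87.4, 96.8 and 89.2 FPKM in G, against 94.5, 104.1 and 96.8 FPKM in A. Its groups overlapped, and its log2 change of -0.11 had a limma adjusted p of 0.402.

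**Figure D5:**
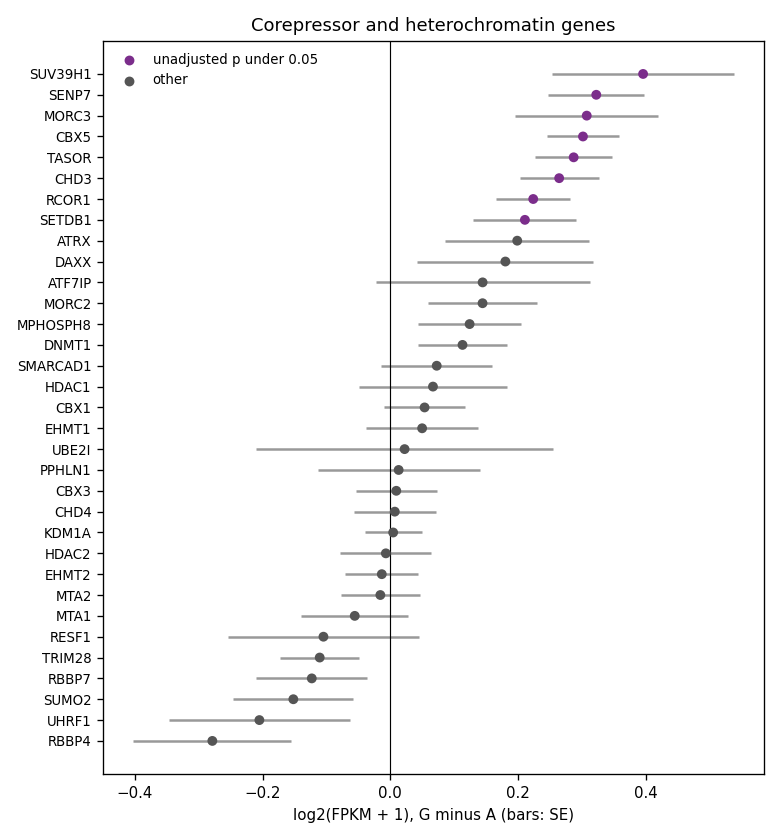
Points are the log2(FPKM + 1) differences, G minus A, of the 33 tested corepressor and heterochromatin genes, with bars for the SE and purple for an unadjusted p under 0.05. The 8 purple genes all lie above 0, from 0.21 for SETDB1 to 0.40 for SUV39H1, and TRIM28 lies at -0.11.

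Numbered ZNF genes elsewhere in the genome gave similar values. Of the 150 tested, 63.3% were positive, with a median log2 change of 0.047, and 12.7% had an unadjusted p under 0.05. The 765 other tested genes of chromosome 19 had a median GC content of 60.3% and leaned the other way, with 35.6% positive and a median of -0.058. Of the left-out 19q13 genes, 4 passed the filter, all positive with a median log2 change of 0.32, and 1, ZNF224, was called.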

How the data were processed

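Poly(A) RNA of 6 PC9 libraries was sequenced as read pairs, per the labels' protocols. The submitters' processing notes list StringTie 1.3.4d, HISAT2 2.0.4 and cutadapt 1.9, and name a mouse genome. The files contradict it: of the transcripts found in GENCODE 29, 94.6% had the same GRCh38 position. Which strand setting and annotation release were used is not given in the sources used here.

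The authors deposited FPKM per gene and transcript, with 0.0001 for no estimate. The authors' deposited table adds, per the file headers, q-values, p-values and the ratio (fold) of G over A, plain and as log2. Whole reads could not be recovered (at most 34.2% of low values were whole multiples of a step within 0.02), so depth is unknown and no intervals on counts are given.

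Values were taken as log2(FPKM + 1), which understates the change of low genes, and genes with 1 FPKM in at least 3 libraries were tested with limma 3.58.1 (R 4.3.3) with an intensity trend. The adjustment ran over all genes. The fit was tested on simulated data. With 3 against 3 libraries an exact permutation test cannot go below 0.1, so none was run for single genes. The labels do not say whether replicate numbers pair the libraries, and the main fit did not treat them as pairs. The members, gene lists and motifs were chosen with earlier results of these data known. Named members are the 10 with the smallest p in each direction, the 8 with the highest mean and those at the filter's edge. Other named genes are TRIM28, SETDB1 and corepressor genes with an unadjusted p under 0.05. ZNF274, ZNF473, ZNF146, ZNF324, ZNF845 and the genes with stray libraries were chosen after their values were seen. GC content and length are those of the transcript with most estimated fragments, in GENCODE 29. Python 3.11.15 with pandas 2.3.3 read the tables. Alternatives changed the pseudocount, filter, scaling, variance model, library weights, replicate block, set of libraries and, added after seeing the data, trends over length and GC content.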

Additional observations from a re-analysis of the deposited data

How the results depend on the processing

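The members' count of 0 calls and the corepressor genes' count of 0 held under all alternatives run with limma and for the authors' q-values. By the authors' deposited p-values, which are not adjusted, 7 of 85 members passed. The number of member transcripts called was 1 without the intensity trend. The number of all genes called, 14, moved to 1 with no filter, 9 with median-ratio factors, 6 with quantile normalization, 5 with cyclic loess and 4 without the trend. Leaving out 1 library gave 5 to 20 calls, 5 without the last G, second A or last A library, 6 without the second G library and 20 without the first A library. The authors' table gives 54 genes by q-value and 844 by p-value, of all 58825 gene rows without the filter. With the replicate number as a block (replicate block), 0 genes were called. Same-numbered libraries correlated at only 0.073, 0.015 and 0.04 in their deviations, and 5 of 6 libraries correlated best with their own number.

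The members' median log2 change ran from 0.001 with trends over length and GC content removed, through 0.012 with cyclic loess and 0.013 with quantile normalization, to 0.14 with equal sums. It was 0.015 to 0.080 without 1 library. The spread of the members' median between libraries was 0.087 (SD). Positive members numbered 43 to 65, while the positive share of all tested genes ran from 48.0% to 73.9%. Over the 20 settings, 48 of 85 members kept 1 sign, 32 higher and 16 lower in G. Of the 24 members named for a small p or a high mean, 22 kept their sign. Most of the 24 were picked for a small p in these same data, which favours a steady sign. Settings that change only the filter, the intensity trend or the replicate block also leave each log2 change as it was. ZNF581 turned to -0.044 with array weights and ran from -0.21 without the first A library to 0.25 without the second, and ZNF761 turned to -0.045 with the trends removed. The GC-rich members were lower in 11 of 17 with equal sums and in 13 to 15 under the other settings. The median SE of the log2 change was 0.12 both for members at 10 FPKM or more and for members under 2 FPKM.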

Other observations

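In 6 members the highest library exceeded the lowest by more than 3 times, where the median member had a ratio of 1.47. In ZNF260 and ZNF628, described above, the groups did not overlap, and in the other 4 they did. ZNF331, an imprinted KRAB gene, had 8.96, 8.84 and 4.77 FPKM in G, against 2.47, 6.88 and 4.06 FPKM in A, so its groups overlapped despite a log2 change of 0.68 (SE 0.35). ZNF791 split the libraries across the groups, with 4.79, 1.42 and 5.19 FPKM in G, against 4.95, 1.46 and 1.51 FPKM in A. In its transcript ENST00000343325 the split was wider, with 5.93, 0.458 and 6.14 FPKM in G, against 6.08, 0.244 and 0.319 FPKM in A, while its transcript ENST00000446165 stayed at 0.740, 1.04 and 0.956 FPKM in G, against 0.767, 1.31 and 1.28 FPKM in A. ZNF841 had 1 high G library, with 9.42, 2.08 and 2.28 FPKM in G, against 5.73, 5.29 and 3.14 FPKM in A. ZNF551 had 1 low G library, with 1.56, 0.400 and 1.71 FPKM in G, against 1.57, 1.23 and 1.48 FPKM in A. These genes were chosen after their values were seen.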
